A study of Mus musculus with 9 samples.

Results

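The striated muscle miRNAs miR-1a-3p, miR-133a-3p, miR-133a-5p, miR-133b-3p and miR-208b-3p were followed through mouse epididymosomes of the caput, corpus and cauda. These 5 miRNAs were taken by name from the 358 mature miRNAs of the expression table. Epididymosomes are small membrane vesicles found in the lumen of the epididymis, the duct in which sperm mature as they pass from caput to corpus to cauda. All 9 libraries came from untreated male mice of the inbred Swiss strain aged 8 weeks, with 3 libraries of caput, 3 of corpus and 3 of cauda epididymosomes. Each library held RNA pooled from several animals. The luminal fluid was released by cutting the tissue in medium after the vessels had been perfused, and the vesicles were then separated on a density gradient.

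miR-1, miR-133 and miR-208 belong to the myomiRs, miRNAs best known from heart and skeletal muscle. miR-1 and miR-133a are made from shared precursor transcripts, and in muscle miR-1 favours differentiation while miR-133 favours the growth of precursor cells. miR-133a and miR-133b are near-identical copies that share a seed, the stretch of a miRNA that pairs with its targets. miR-208b lies within the gene of the slow myosin heavy chain and is made together with it in slow muscle fibres and heart.

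The mature sequences of miR-133b-3p and miR-208b-3p in RefSeq (GRCm38.p6) are shown 5′ to 3′ with the seed, bases 2 to 8, in capitals. They are printed with miR-208a-3p, the heart relative of miR-208b, and with miR-499-5p, a myosin-encoded miRNA, because the seeds define which of these could act on the same targets.
miR-133b-3p: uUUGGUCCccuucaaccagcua
miR-208b-3p: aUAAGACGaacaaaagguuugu
miR-208a-3p: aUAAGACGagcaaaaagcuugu
miR-499-5p: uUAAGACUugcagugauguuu
The seeds of miR-133b-3p and miR-208b-3p differ, so that these members fall into separate seed groups. miR-208b-3p and miR-208a-3p have the same seed and differ at 3 positions outside it, A10G, G16A and U18C, counted from the 5′ end with the base of miR-208b-3p first. miR-208a-3p and miR-499-5p are not among the 358 miRNAs. RefSeq held a mature sequence for 299 of the 358 miRNAs, and none of the others in this set shared the seed of miR-133b-3p or of miR-208b-3p. Only 2 of the 5 members had a sequence there. miR-1a-3p, miR-133a-3p and miR-133a-5p were therefore not in this search, although miR-133a-3p shares the seed of miR-133b-3p. The GC content was 50% for miR-133b-3p and 31.8% for miR-208b-3p, against a median of 45.5% over the 299.

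The hairpins from which both miRNAs are cut are shown with the mature 3p arm in capitals, since the arm and its host gene place each member in the genome.
Mir133b: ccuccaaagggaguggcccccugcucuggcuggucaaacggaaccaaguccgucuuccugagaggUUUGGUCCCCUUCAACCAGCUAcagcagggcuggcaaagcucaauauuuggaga
Mir208b: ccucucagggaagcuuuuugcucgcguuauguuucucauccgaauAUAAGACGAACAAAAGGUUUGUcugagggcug
In GENCODE M21 on GRCm38, Mir133b lies at chr1:20682769-20682887 on the plus strand within an exon of the lincRNA gene Gm28653. Mir206, the partner of Mir133b, lies in an exon of the same lincRNA, 3686 bases upstream. Mir208b lies at chr14:54975700-54975776 on the minus strand, in an intron of Myh7, the slow myosin heavy chain. For miR-1a and miR-133a, only the hairpins Mir1a-1 and Mir133a-2 were looked up, and any other hairpin of these miRNAs was not. Mir1a-1 at chr2:180389048-180389124 and Mir133a-2 at chr2:180398379-180398482 lie on the plus strand, 9254 bases apart, and overlap no other annotated gene.

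The values are CPM, in which the reads of a miRNA are scaled to the same total of miRNA reads in each library. Library totals, read from the steps of these values, ranged from 1548581 to 11306605 reads, and the 3 caput libraries were the deepest. The floor of detection was set at 3 reads per library. It covers counting error only and lay between 0.265 and 1.94 CPM. Segments were compared with limma on log2(CPM + 1) over all 9 libraries. A miRNA was called where it changed 2-fold or more at an adjusted p-value under 0.05 (Benjamini-Hochberg), among miRNAs with a mean of 10 CPM or more in at least 1 of the compared segments. Scaling by library size ties each value to the dominant miRNAs: the share of miR-10a-5p and miR-10b-5p in all miRNA reads was 50.5% to 71.3% in the caput and 33.2% to 34.5% in the cauda. Over all tested miRNAs the log2 fold change from caput to cauda had a median of 0.81. TMM normalization, a trimmed scaling that gives less weight to such dominant miRNAs, brought it to 0.13. A change in the number of vesicles or cells carrying a miRNA and a change in its copies per vesicle cannot be told apart in these data.

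All 5 miRNAs were higher in the cauda than in either proximal segment. From corpus to cauda 5 of 5 were called as higher, where 14% of the 342 tested miRNAs were called in this direction. From caput to cauda 5 of 5 were called as higher, against 38.7% of 349. With TMM normalization 5 of 5 were again called in both comparisons, against 16.9% and 24% of the miRNAs tested. From caput to corpus 0 of 5 were called, and only miR-133a-3p was abundant enough to be tested there. Of the 321 miRNAs tested in that comparison 22.4% were called, 19% as higher and 3.43% as lower. The 2 comparisons that involve the cauda share its libraries. Moreover, 4 of the 5 members reached a mean of 10 CPM only in the cauda, and entered the comparisons through the segment in which they were high. Of the 37 miRNAs of the table that did so, 45.9% were called as higher from corpus to cauda and 78.4% from caput to cauda. These 37 miRNAs include the 4 members.

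**Figure D1:**
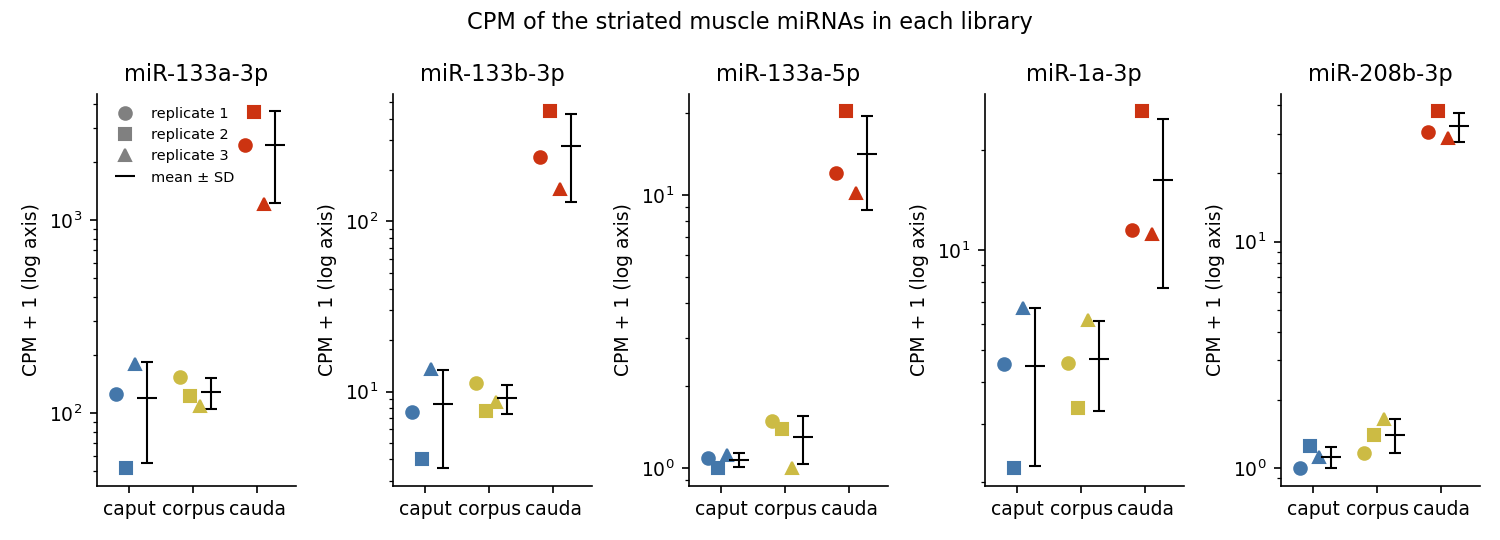
CPM + 1 on a log axis for each of the 5 miRNAs in the 9 libraries, with symbols for the replicate, colours for the segment and black bars for the mean ± SD of 3 libraries. The caput and corpus libraries overlap for every miRNA, and all 3 cauda libraries lie above them.

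miR-133a-3p, the guide strand of miR-133a, was the most abundant member in every library. It had 125, 51.0 and 178 CPM in caput replicates 1 to 3. It had 153, 122 and 107 CPM in the corpus replicates. In the cauda replicates it had 2458, 3644 and 1211 CPM. The caput and corpus libraries overlapped, whereas the lowest cauda library was 6.80 times the highest caput library and 7.93 times the highest corpus library. These values rested on at least 166 reads in each library. By its mean CPM miR-133a-3p ranked 114 of 358 in the caput and 128 in the corpus, but 32 in the cauda. From corpus to cauda it rose 17.5-fold, corresponding on the log2 scale to 4.13 (standard error 0.50), and limma gave an adjusted p of 1.8e-05. From caput to cauda it rose 21.0-fold, a log2 fold change of 4.39 (standard error 0.50, adjusted p = 3.9e-06). The latter rise was 13.2-fold under TMM normalization. The log2 fold change from caput to corpus was 0.27, with a 95% interval of -0.79 to 1.32 and an adjusted p of 0.71 by limma, and it was -0.30 with TMM normalization. A difference between these segments was therefore not detected, but the interval still includes changes of more than 2-fold upwards.

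miR-133b-3p, which is encoded on another chromosome, followed at a lower level. It had 6.63, 3.02 and 12.7 CPM in the caput replicates and 10.2, 6.66 and 7.75 CPM in the corpus replicates. The cauda replicates had 237, 441 and 154 CPM, the lowest of which was 12.1 times the highest caput library. The proximal libraries overlapped and held between 12 and 107 reads, while the cauda libraries held 474, 963 and 906. From corpus to cauda it rose 27.9-fold (log2 fold change 4.80, standard error 0.52), and limma gave an adjusted p of 5.5e-06. This was the largest fitted rise among the 342 miRNAs tested, but with a pseudocount of 0.5 that of miR-208b-3p was larger (5.17 against 4.88), as it was with limma-voom (5.98 against 4.84). From caput to cauda it was 33.8-fold higher (log2 fold change 5.08, standard error 0.52, adjusted p = 1.4e-06 by limma), and 22.3-fold with TMM normalization.

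miR-133a-5p, the passenger strand of miR-133a, had 1, 0 and 1 reads in the caput replicates and 3, 1 and 0 in the corpus replicates, all at the floor. The cauda replicates had 22, 42 and 54 reads, or 11.0, 19.2 and 9.16 CPM. Set against the highest floor of a single library in each segment, the cauda mean of 13.1 ± 5.36 CPM (SD, n = 3) was at least 36.2-fold higher than the caput and at least 6.78-fold higher than the corpus. Under TMM normalization the limit against the caput was 14.5-fold. By limma the adjusted p was 2.9e-05 from caput to cauda and 0.00011 from corpus to cauda. The miRNA stood close to the filter of 10 CPM, and was not tested where the filter was 20 CPM or where miR-10a-5p and miR-10b-5p were left out of the library totals.

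miR-208b-3p, the miRNA of the slow myosin gene, was likewise at the floor outside the cauda, with 0, 2 and 1 reads in the caput replicates and 1 read in each corpus library. The cauda replicates held 59, 80 and 163 reads, or 29.5, 36.6 and 27.6 CPM. Among the members these were the most even cauda values, with a coefficient of variation of 15.2% against 40.9% to 56.1% for the other four. The 163 reads of cauda replicate 3 reflect its greater depth of 5896748 reads. The cauda mean was at least 16.1-fold above the highest corpus floor, or at least 15.3-fold with TMM normalization. Against the deeper caput libraries the limit was 86.2-fold, or 34.5-fold with TMM normalization. By limma the adjusted p was 4.2e-06 from corpus to cauda and 6.5e-07 from caput to cauda. With so few reads outside the cauda only these limits, and not the size of the rise, can be given.

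miR-1a-3p, the other product of the miR-133a loci, had the smallest fold change of the members into the cauda. It had 3.54, 1.21 and 5.68 CPM in the caput replicates, 3.55, 2.35 and 5.17 CPM in the corpus replicates, and 10.5, 25.2 and 10.2 CPM in the cauda replicates. The cauda libraries lay above all others, but the lowest of them was only 1.79 times the highest caput library, and cauda replicate 2 stood well above its replicates. The libraries held 6 to 60 reads of it. From caput to cauda it was 3.69-fold higher (log2 fold change 1.88, standard error 0.54, adjusted p = 0.0089 by limma), and from corpus to cauda 3.29-fold (log2 fold change 1.72, standard error 0.54, adjusted p = 0.034). Both calls were lost without cauda replicate 2, with an adjusted p of 0.051 from caput to cauda and 0.15 from corpus to cauda. The call from corpus to cauda was also lost without corpus replicate 1 (adjusted p = 0.09), without corpus replicate 2 (adjusted p = 0.14) and with limma-voom on the recovered reads (adjusted p = 0.065). Its rise from caput to cauda ranked 82 of 349, whereas those of miR-133b-3p and miR-133a-3p ranked 3 and 7.

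**Figure D2:**
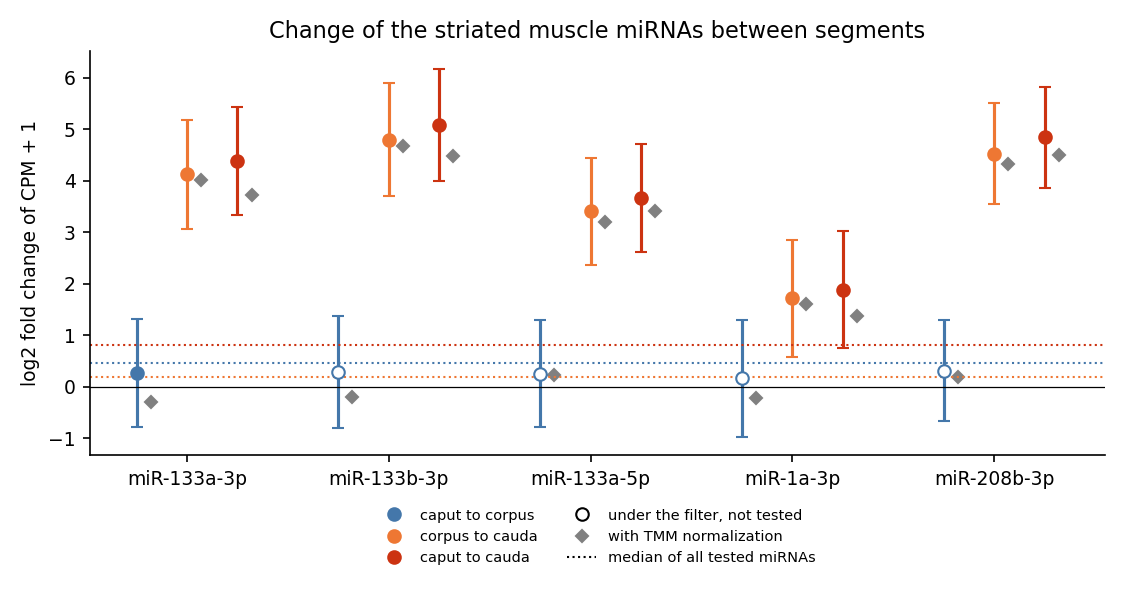
Log2 fold change of CPM + 1 with its 95% interval from limma for each miRNA and comparison, with open circles where a miRNA was under the filter, grey diamonds for TMM normalization and dotted lines for the median of all tested miRNAs. The intervals of the changes from caput to corpus include 0, and those of the changes into the cauda lie above it for all 5 miRNAs.

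The change from corpus to cauda was next compared directly with that from caput to corpus, as the difference of both log2 fold changes in the same limma fit. The second step was the larger for 4 of the 5 members at an adjusted p under 0.05, where 1.96% of the 358 miRNAs, or 7 with the members included, had a larger second step at this level. Of these members 3 had reached 10 CPM only in the cauda, and the share among the 37 miRNAs of that kind was 10.8%, or 4 miRNAs with these members included. The difference was 4.52 (standard error 0.89, adjusted p = 0.0049 by limma) for miR-133b-3p and 3.86 (adjusted p = 0.013) for miR-133a-3p. The adjusted p was 0.0049 for miR-208b-3p and 0.036 for miR-133a-5p. For this pair the caput and corpus are both at the floor, so that the size of the difference is set by the pseudocount, and for miR-208b-3p it was 4.65 with a pseudocount of 0.5 and 2.66 with one of 5. For miR-1a-3p it was 1.56, with a 95% interval of -0.41 to 3.52 and an adjusted p of 0.37. Without corpus replicate 2 only miR-133b-3p and miR-208b-3p passed, and miR-133a-3p had an adjusted p of 0.062. miR-133a-5p did not pass either without caput replicate 1, any 1 of the corpus replicates or cauda replicate 2, with adjusted p-values from 0.056 to 0.16, or with a pseudocount of 0.5 (adjusted p = 0.054).

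**Figure D3:**
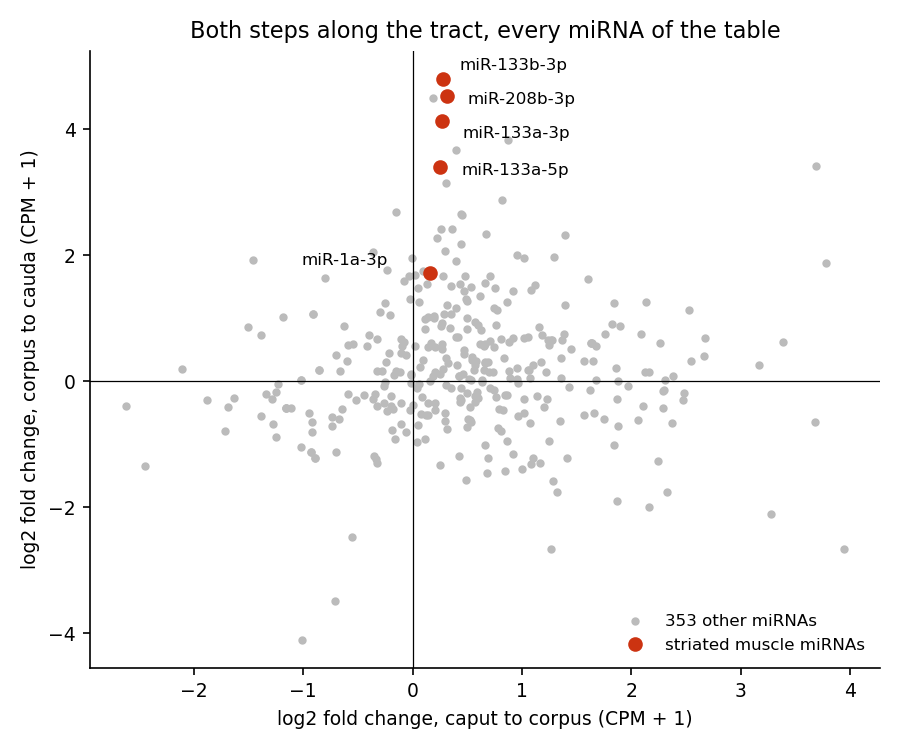
Each point is 1 miRNA of the table, with its log2 fold change of CPM + 1 from caput to corpus on the horizontal axis and from corpus to cauda on the vertical axis. The red points, the striated muscle miRNAs, lie between 0.16 and 0.31 on the horizontal axis and between 1.72 and 4.80 on the vertical axis.

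As a group the members had a median log2 fold change of 4.13 from corpus to cauda, against 0.18 over all tested miRNAs. With miR-133a-5p and miR-208b-3p set to their limits the median was 4.01. From caput to cauda the median was 4.39, or 5.08 with both limits, against 0.81 over all miRNAs tested. Under TMM normalization the median of the members from caput to cauda was 3.72. The cauda libraries did not overlap those of the caput or of the corpus for any of the 5 members. Over all tested miRNAs, 42.4% were higher without overlap from caput to cauda and 30.1% from corpus to cauda. Since 4 of the 5 members reached 10 CPM only in the cauda, a high and separate cauda is partly built into these comparisons. The median and the share without overlap were not computed for the 37 miRNAs of that kind.

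The summed level of the 5 members was 129 ± 70.8 CPM in the caput, 140 ± 24.3 CPM in the corpus and 2774 ± 1377 CPM in the cauda (SD, n = 3). At its highest, in cauda replicate 2, it was 0.417% of the reads counted on miRNAs. miR-133a-3p made up 85.8% to 92.6% of this sum in every library. In the cauda miR-133a-3p was followed by miR-133b-3p at 277 ± 148 CPM, miR-208b-3p at 31.2 ± 4.74 CPM, miR-1a-3p at 15.3 ± 8.57 CPM and miR-133a-5p at 13.1 ± 5.36 CPM (SD, n = 3). The libraries of the last pair overlapped, so that their order was not resolved, while those of the other neighbours did not. In the caput miR-133b-3p was again second, at 7.44 ± 4.87 CPM, but miR-1a-3p came next at 3.47 ± 2.24 CPM and overlapped it, with miR-208b-3p and miR-133a-5p at the floor. These are levels in reads, and the cloning of miRNAs into libraries is known to differ between sequences.

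The shares of the members in each other's reads were then compared. miR-133b-3p took 5.03% to 6.63% of the joint reads of miR-133a-3p and miR-133b-3p in caput libraries, and 5.18% to 6.74% in corpus libraries. In the cauda replicates its share was 8.79%, 10.8% and 11.3%, with exact 95% binomial intervals from 8.05% to 9.58% for replicate 1 to 10.6% to 12.0% for replicate 3. Every cauda library thus lay above every proximal library, and an exact permutation test of the cauda against the caput or the corpus gave p = 0.1 (two-sided), the smallest that 3 libraries against 3 allow. The intervals of some proximal libraries, such as corpus replicate 3 with 3.53% to 11.5% on 178 reads, nevertheless overlapped those of the cauda. Reads of such near-identical miRNAs may be split between the names in the counting, so that the shares are uncertain. Summed into 1 feature, both were still called from corpus to cauda and from caput to cauda.

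The share of miR-1a-3p in its joint reads with miR-133a-3p was lowest in the cauda. It was 2.31% to 3.09% in the caput, 1.89% to 4.60% in the corpus and 0.425% to 0.833% in the cauda, again without overlap (exact permutation p = 0.1, two-sided, in both comparisons). Counted per read of miR-1a-3p, there were 20.8 to 51.8 reads of miR-133a-3p in the proximal libraries and 119 to 234 in the cauda libraries. The counting interval of corpus replicate 2, from 0.698% to 4.07% on 6 reads of miR-1a-3p, overlapped those of cauda replicates 2 and 3.

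The arms of miR-133a could be compared well only in the cauda. There miR-133a-5p made up 0.445%, 0.525% and 0.750% of the reads of both arms in the 3 replicates. In the proximal libraries the share was 0 to 0.321%, on 3 reads or fewer of the 5p arm. The cauda libraries thus lay above all proximal libraries (exact permutation p = 0.1, two-sided, in both comparisons). The exact 95% interval reached up to 0.870% in caput replicate 2 and up to 2.20% in corpus replicate 3, overlapping those of the cauda. In caput replicates 1 and 3 it reached only 0.393% and 0.369%, below that of cauda replicate 3, which began at 0.564%. Every corpus interval overlapped those of the cauda, so that the size of the difference was not resolved at this depth.

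**Figure D4:**
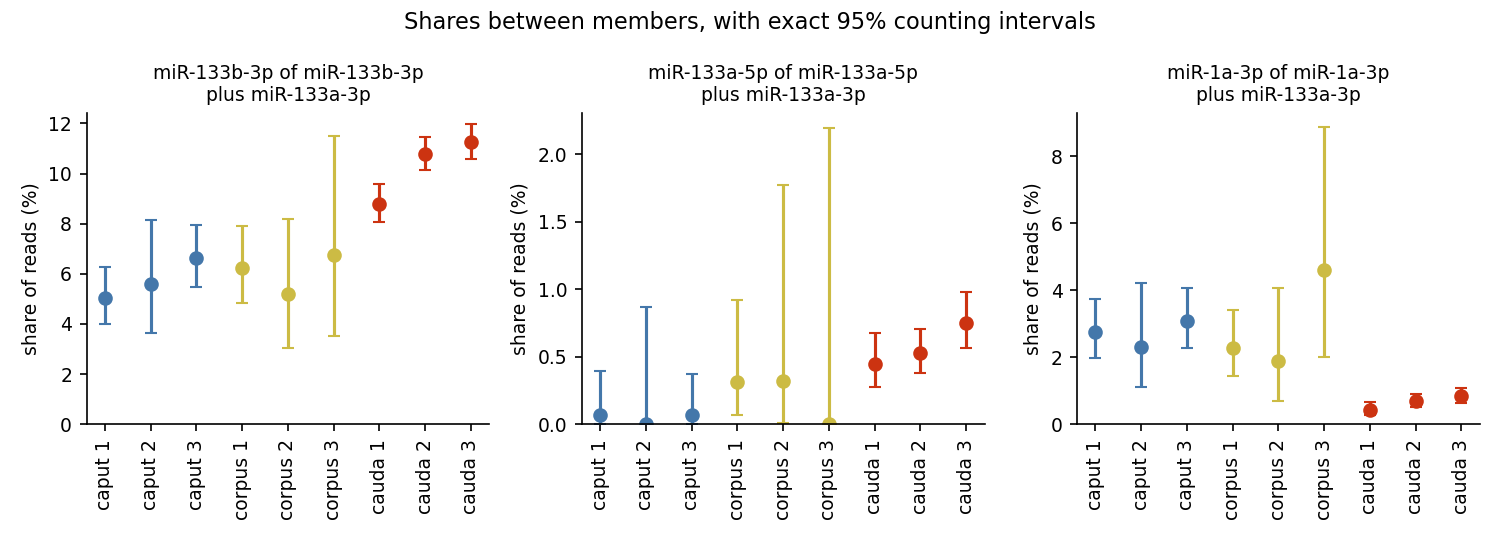
Share of reads in each library, in percent, of miR-133b-3p beside miR-133a-3p, of miR-133a-5p beside miR-133a-3p and of miR-1a-3p beside miR-133a-3p, with exact 95% binomial intervals that cover counting error only. The share of miR-133b-3p is 8.79% or more in the cauda, and that of miR-1a-3p is 0.833% or less.

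Within the cauda all 5 members ranked the libraries alike, with replicate 2 highest, replicate 1 next and replicate 3 lowest, an order shown by 19.3% of the 358 miRNAs. Replicates 1 and 3 were close for miR-1a-3p (10.5 and 10.2 CPM), miR-133a-5p (11.0 and 9.16 CPM) and miR-208b-3p (29.5 and 27.6 CPM). In replicate 1 these rested on 21, 22 and 59 reads, so that their order is uncertain. The spread of miR-133a-3p across the 3 cauda replicates was 3.01-fold and that of miR-208b-3p 1.32-fold. In the caput replicate 2 was lowest and replicate 3 highest for miR-1a-3p, miR-133a-3p and miR-133b-3p, which was the order of replicates in 64.5% of all miRNAs. Caput replicate 2 was also the library in which miR-10a-5p and miR-10b-5p took the largest share.

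The other myomiRs were largely not represented. Of 15 further names of striated muscle miRNAs, among them miR-206-3p, miR-208a-3p, miR-499-5p and miR-133b-5p, only miR-486a-5p and miR-486b-5p were among the 358, so that the label of striated muscle rests on the members themselves. All of the 358 had a mean of 10 CPM or more in at least 1 segment. A name missing from them may therefore still have had reads below that level. miR-486 is abundant in red blood cells as well as in muscle, and the values of the pair were nearly the same in every library. From corpus to cauda miR-486a-5p rose 6.27-fold (adjusted p = 0.0014 by limma), and it was not called from caput to corpus (log2 fold change 0.45, adjusted p = 0.53).

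Markers of other cell types were summed in each library. The 4 smooth muscle names (miR-143 and miR-145a, both arms) summed to 50115 to 88995 CPM in the caput, 88423 to 121412 CPM in the corpus and 291676 to 354786 CPM in the cauda, and 4 of 4 were called as higher from corpus to cauda. The 5 erythroid names found summed to 223 to 848 CPM, 390 to 1106 CPM and 3030 to 4365 CPM, and 3 of 5 were called in this step. The erythroid calls were those of miR-486a-5p, miR-486b-5p and miR-486a-3p, which made up 89.4% to 98.6% of the erythroid sum in the cauda and which muscle makes as well. Since miR-486a-5p and miR-486b-5p had nearly the same values in every library, this sum and these calls may count the same reads under both names. miR-451a, the defining miRNA of red blood cells, had 72.2, 157 and 363 CPM in the corpus replicates and 52.0, 380 and 157 CPM in the cauda replicates. These libraries overlapped, and miR-451a was not called in this step (log2 fold change -0.13, standard error 0.71, adjusted p = 0.9 by limma). miR-144-3p was not called either (log2 fold change 0.66, adjusted p = 0.52). From caput to cauda, by contrast, 5 of 5 erythroid names were called as higher. There miR-451a was 4.47-fold higher (adjusted p = 0.018 by limma) and miR-144-3p 3.73-fold (adjusted p = 0.023). miR-451a was already called as higher from caput to corpus (4.91-fold, adjusted p = 0.028 by limma). The smooth muscle sum was highest in cauda replicate 1 and lowest in replicate 3, as were the miR-486 miRNAs, while the members, miR-451a and miR-144-3p were highest in replicate 2. Nearly all of the smooth muscle sum was miR-143-3p, with 352106, 306625 and 287084 CPM in cauda replicates 1 to 3. miR-145a-3p had the same order, but miR-145a-5p was highest in replicate 3 (3851 CPM) and miR-143-5p lowest in replicate 2 (19.2 CPM). The 5 leukocyte names ranged from 392 to 1601 CPM in the cauda against 515 to 1149 CPM in the corpus, and 1 of 5 was called. The endothelial pair and the 5 epithelial names had 0 calls from corpus to cauda. From caput to cauda 4 of 4 smooth muscle, 3 of 5 leukocyte and 1 of 5 epithelial names were called as higher, and 0 of 2 endothelial names. The summed epithelial level was 20990 to 31796 CPM in the caput, 71973 to 84209 CPM in the corpus and 44552 to 61007 CPM in the cauda. It was lower in the cauda than in the corpus without overlap. Most of it was miR-141-3p, with 66249, 58422 and 72410 CPM in the corpus replicates and 32901, 38547 and 49859 CPM in the cauda replicates. miR-200a-3p was also lower without overlap, whereas miR-200b-3p, miR-200c-3p and miR-429-3p overlapped between both segments. The smooth muscle miRNAs and the miR-486 miRNAs therefore rose from corpus to cauda, as did the members. The part of any marker list in the rise of the members was not tested.

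**Figure D5:**
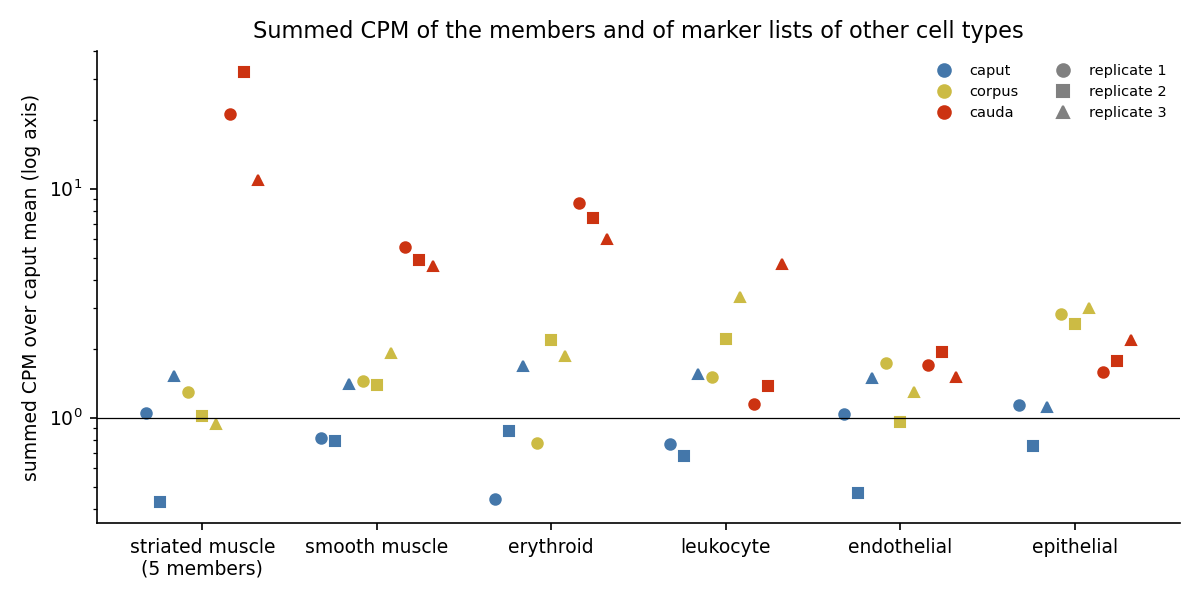
Summed CPM of the members and of 5 marker lists in each library, divided by the caput mean of the same sum, on a log axis, with colours for the segment and symbols for the replicate. The cauda libraries of the members lie farther above the caput mean than those of any other list.

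The miRNAs with the most similar profile were sought by the root-mean-square difference between log2(CPM + 1) values over the 9 libraries, each miRNA centred on its own mean. miR-137-3p, which is best known from neurons, was the closest non-member to miR-208b-3p (0.39), miR-133a-3p (0.42) and miR-133b-3p (0.46), and the second closest to miR-133a-5p (0.53). Its means were 0.167 CPM in the caput, 0.346 CPM in the corpus and 30.1 CPM in the cauda. As both proximal means were under 1 CPM, the added 1 CPM limits the size of its rise on this scale. Its likeness to the more abundant miR-133a-3p and miR-133b-3p therefore does not show a rise of the same size. miR-338-5p was the closest to miR-133a-5p (0.44) and came second for miR-133a-3p (0.61) and miR-133b-3p (0.88) and after miR-486a-3p for miR-208b-3p (0.77). The remaining places fell to miR-378d for miR-133a-3p, miR-486a-3p for miR-133a-5p and miR-208b-3p, and miR-465b-5p for miR-133b-3p. Among the members themselves the profiles of miR-133a-3p and miR-133b-3p were the closest (0.36). miR-1a-3p stood apart, at 0.95 to 1.50 from the other members, and its nearest profiles were those of miR-19b-3p (0.26), miR-155-5p (0.33) and miR-365-3p (0.36).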

How the data were processed

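Small RNA of epididymosomes from 3 segments was sequenced by the authors, who screened reads for contaminants with cutadapt and bowtie (Bowtie 1.1.1 and CASAVA 1.8.2 in the submitters' processing notes), then used miRDeep2 to count the known mature miRNAs and scaled these by library size. Genome build and miRBase release were not given in the sources used here. The deposited values are CPM, although the table is named for counts. In each library 100% of the values were whole multiples of 1 read (within 0.05 reads), which gave the totals of 1548581 to 11306605 reads. The unit was therefore tested with limma 3.58 in R 4.3 (log2(CPM + 1), segment as the only factor, moderated variances with a mean trend), in place of a count test. On this scale the changes of scarce miRNAs come out too small. TMM and median-of-ratios factors were computed from the recovered reads. The fit was tried on simulated counts of a set spread, which does not show how it performs at the spread between these libraries. Shares have exact Clopper-Pearson intervals. Each replicate is a pool of animals, and replicates differed by more than counting noise. No miRNA of the table had a mean under 10 CPM in all segments. The miRNAs named beside the members were the 3 nearest profiles of each and the preset muscle and marker lists. The members and lists were chosen with earlier results of these data known. Python 3.11, pandas 2.3 and matplotlib 3.10 were used. Sperm, epithelial cells and RT-qPCR were not analysed here.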

Additional observations from a re-analysis of the deposited data

How the results depend on the processing

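With TMM normalization, median-of-ratios factors, no filter, pseudocounts of 0.5 and 5, or the 6 libraries of a comparison alone, 5 of 5 members were called from corpus to cauda and from caput to cauda. The sum of miR-133a-3p and miR-133b-3p was called in both as well. A filter of 20 CPM left 3 members called in each of these comparisons, since miR-1a-3p and miR-133a-5p were then not tested. Without miR-10a-5p and miR-10b-5p in the library totals 4 were called, as miR-133a-5p fell under the filter. limma-voom on the recovered reads called 4 from corpus to cauda and 5 from caput to cauda, and with TMM normalization, added after the data were seen, 5 in both. Over the 12 alternatives other than leaving 1 library out, 31 to 59 of all miRNAs were called as higher from corpus to cauda. From caput to cauda 68 to 144 were. In the main fit these numbers were 48 and 135. With 1 library left out the members called were 4 to 5 in both comparisons, 0 from caput to corpus, and 2 to 4 for the difference between the steps. Over all miRNAs the calls then ranged from 46 to 102 from caput to corpus (72 with all libraries), from 32 to 83 from corpus to cauda (65) and from 132 to 202 from caput to cauda (171). They fell most without corpus replicate 1 (46) from caput to corpus. From corpus to cauda they were 41 without corpus replicate 1, 32 without corpus replicate 2, 38 without cauda replicate 1 and 39 without cauda replicate 2.

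Of the 171 calls from caput to cauda 135 were higher in the cauda, against 84 of 157 with TMM normalization, 80 with median-of-ratios factors, 87 with limma-voom and TMM normalization and 68 without miR-10a-5p and miR-10b-5p in the totals. From corpus to cauda 48 were higher, against 31 without miR-10a-5p and miR-10b-5p in the totals. From caput to corpus 61 of 72 were higher, against 42 of 91 with TMM normalization. The fitted change of miR-208b-3p from caput to cauda ran from 2.82 to 7.87 on the log2 scale over the alternatives, and that of miR-133a-5p from 1.8 to 6.76, while miR-133a-3p stayed between 3.57 and 4.83 and miR-133b-3p between 4.33 and 5.51. No called result changed direction. At 10 CPM a library held 15.5 to 113 reads, which limits what can be said of miR-1a-3p, miR-133a-5p and miR-208b-3p outside the cauda.

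Whether libraries of the same number came from the same animals was not given in the sources used here. The correlation of their deviations from the segment means across miRNAs was between -0.21 and 0.41. Not every library correlated best with its own number, which does not settle the question. With the replicate number as a block the members called were 0 from caput to corpus, 5 from corpus to cauda, 5 from caput to cauda and 4 for the difference between the steps, and the calls over all miRNAs were 83, 73 and 180. The planned quasi-likelihood test on recovered reads was not run.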
